A study of Mus musculus with 12 samples.

Results

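The levels of 10 genes that mark disease-associated and activated microglia, Lyz2, Apoe, Trem2, Cst7, Clec7a, Axl, Spp1, Lpl, Gpr84 and Igf1, were followed in brain RNA of mice given delta-9-tetrahydrocannabinol (THC) in adolescence and lipopolysaccharide (LPS) as adults. They were chosen by name, with earlier results of these data known, and are 10 of the 25556 genes in the joined count table. All animals were male C57BL6 mice. THC, the main psychoactive compound of cannabis, was given intraperitoneally at 5 mg/kg once daily from postnatal day 30 to 44, and LPS, an outer membrane molecule of bacteria that innate immune cells sense, at 0.33 mg/kg on day 70. The 4 groups were THC_LPS (THC, then LPS), Veh_LPS (the Tween-80 vehicle, then LPS), THC_Ctrl (THC, then saline) and Veh_Ctrl (vehicle, then saline), with 3 RNA-seq libraries each. Brain tissue was collected 24 h after LPS or saline. The labels do not name the brain region, and they do not say whether replicate libraries stem from different animals. The p-values therefore describe the scatter among these libraries, and that scatter may be technical.

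Microglia are the resident macrophages of the brain. In models of neurodegeneration they lower homeostatic genes such as P2ry12 and Tmem119. They also raise a program, described in mouse models of Alzheimer's disease, that includes Lyz2, Apoe, Trem2, Cst7, Clec7a, Axl, Spp1, Lpl and Igf1. Several of these genes are also active in other brain cells: Apoe and Axl in astrocytes, Spp1 and Igf1 in some neurons, and Lyz2 in blood monocytes and neutrophils.

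Totals per library were 16.7 to 22.4 M reads in THC_LPS, 25.5 to 44.7 M in Veh_LPS, 24.7 to 25.6 M in THC_Ctrl and 24.3 to 26.4 M in Veh_Ctrl. Homeostatic microglial RNA was present in every library, with P2ry12 at 16.3 to 31.1 CPM in THC_LPS, 12.3 to 20.7 in Veh_LPS, 19.3 to 25.7 in THC_Ctrl and 20.9 to 23.4 in Veh_Ctrl (CPM is reads per 1 M reads after TMM scaling). Some libraries stood apart. In THC_LPS replicate 3 gene levels relative to the other libraries had a Spearman correlation of -0.746 with GC content, against -0.11 to 0.275 in the other 11. Veh_LPS replicate 2 carried pituitary hormone transcripts, whose list summed to 4171 CPM there and to 15.6 CPM at most elsewhere. The summed level of 15 Hox genes and Slc6a5, which are markers of caudal nervous tissue, ran from 11.2 to 85.0 CPM over the libraries. All 10 members passed the expression filter and were among the 17208 genes tested, Cst7 and Clec7a with at most 24 and 12 reads in any library.

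Lyz2, Cst7 and Gpr84 had the largest average log2 fold changes with LPS, and their promoters are shown because the 3 genes share letters there. RefSeq promoters (GRCm38.p6, 250 bases before to 50 after the start, written 5′ to 3′ on the strand of the gene) were at hand for 9 of the 10 members, all but Lpl. Capitals mark AGGAAGT or its complement ACTTCCT, the core recognised by factors of the ETS family, to which the myeloid regulator PU.1 belongs. Lyz2 lies at chr10:117282223-117282522 on the minus strand, Cst7 at chr2:150570165-150570464 on the plus strand and Gpr84 at chr15:103310389-103310688 on the minus strand.
Lyz2: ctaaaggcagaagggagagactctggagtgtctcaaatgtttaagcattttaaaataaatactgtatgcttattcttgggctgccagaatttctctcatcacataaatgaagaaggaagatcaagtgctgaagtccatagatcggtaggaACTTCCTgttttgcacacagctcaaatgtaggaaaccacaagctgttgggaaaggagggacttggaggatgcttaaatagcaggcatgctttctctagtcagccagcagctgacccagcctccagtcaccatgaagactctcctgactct
Cst7: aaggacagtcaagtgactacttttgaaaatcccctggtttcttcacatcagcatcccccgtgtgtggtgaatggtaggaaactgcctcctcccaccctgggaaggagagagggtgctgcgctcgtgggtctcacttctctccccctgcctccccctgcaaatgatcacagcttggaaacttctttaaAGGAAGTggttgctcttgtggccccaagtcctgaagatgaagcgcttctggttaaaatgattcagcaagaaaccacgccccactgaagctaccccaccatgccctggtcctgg
Gpr84: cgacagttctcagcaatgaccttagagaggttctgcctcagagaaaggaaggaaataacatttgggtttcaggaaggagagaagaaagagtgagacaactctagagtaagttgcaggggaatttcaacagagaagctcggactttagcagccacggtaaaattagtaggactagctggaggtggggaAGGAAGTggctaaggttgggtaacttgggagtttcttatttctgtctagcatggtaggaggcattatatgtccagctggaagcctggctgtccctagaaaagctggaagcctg
The match began 100 bases before the start in Lyz2, on the opposite strand, and 63 bases before it in both Cst7 and Gpr84, on the same strand as the gene. Counting both strands, 4 of the 9 members held these letters, Spp1 being the fourth, against 9.35% of 32851 promoters of the same length. The letters were chosen after the sequences had been read. The PU.1 letters GAGGAA, which can overlap the first set, were in 6 of the 9 and in 28.3% of all promoters. Those 6 were Apoe, Trem2, Clec7a, Axl, Spp1 and Igf1, and the windows of Lyz2, Cst7 and Gpr84 held none. The Igf1 window, which also held AP-1 letters, lies 2846 bases from the deposited gene start, against 0 to 28 bases for the others. Apoe has 3 promoters and Clec7a and Spp1 have 2 each, of which 1 was searched. The AP-1 letters TGANTCA were in 3 of the 9 and in 7.81% of all, and the interferon response letters GAAA, 2 bases of any kind and GAAA again in 1 of the 9 and in 3.44% of all. The TATA box letters TATAAA were in 2 of the 9 and in 13.6% of all.

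Levels of different genes were compared on the deposited FPKM scale, which divides by gene length. Apoe, which encodes the main lipid carrier protein of the brain, averaged 991 FPKM over the 12 libraries and ranked 13 among 25556 genes. Spp1 at 16.3 FPKM and Axl at 14.7 FPKM came next and overlapped in every group. Lyz2 followed at 6.68 FPKM and overlapped with no neighbour in any group. Below it were Trem2 at 1.87 FPKM, Lpl at 1.44 FPKM and Igf1 at 1.34 FPKM, of which Lpl and Igf1 overlapped in all 4 groups. Gpr84 at 0.857 FPKM, Cst7 at 0.326 FPKM and Clec7a at 0.108 FPKM had the lowest means over all 12 libraries. Within Veh_LPS alone Gpr84 averaged 1.48 FPKM, with Lpl at 1.42 and Igf1 at 1.01, and overlapped with Trem2, Lpl and Igf1. Cst7 and Clec7a overlapped in THC_Ctrl and Veh_Ctrl but not in THC_LPS or Veh_LPS. The value of Trem2 depends on a deposited gene length of 4784 bases.

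**Figure D1:**
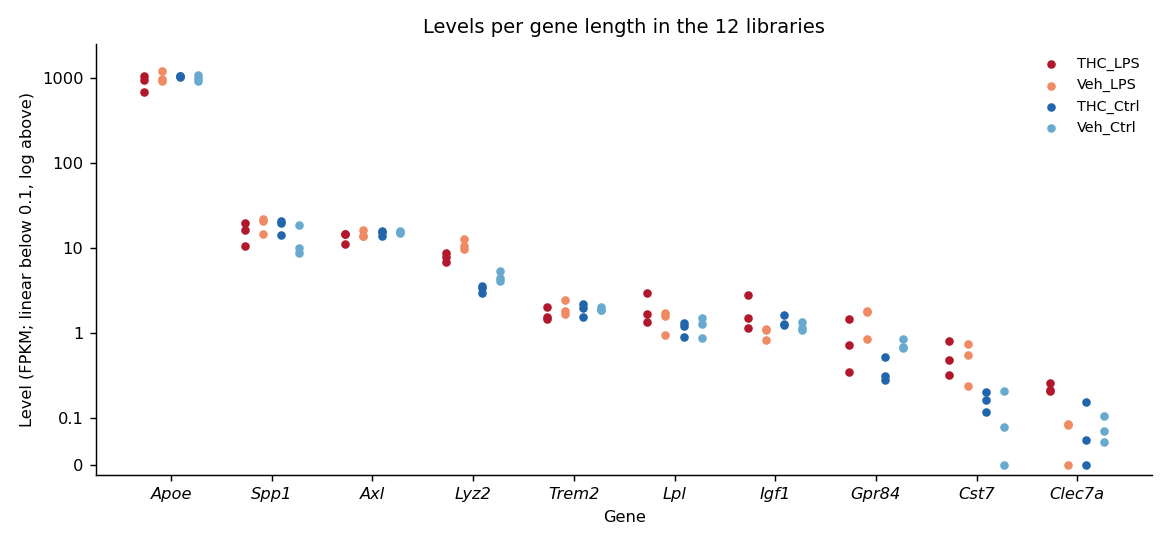
Level of each member in each of the 12 libraries (y axis, FPKM, linear below 0.1 and logarithmic above), with THC_LPS, Veh_LPS, THC_Ctrl and Veh_Ctrl side by side, 3 points each. Apoe lies between 673 and 1214 FPKM, far above the other 9 genes, and Lyz2 is the gene whose LPS points all lie above all its saline points after both pretreatments at more than 1 FPKM.

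The first question was how these genes differed 24 h after LPS. Lyz2 rose with LPS after both pretreatments, and it was the only member that passed the test. With edgeR (quasi-likelihood fit, Benjamini-Hochberg over 17208 genes), 1 of the 10 members was called in each LPS comparison, where 0.11% of all genes tested were called for LPS after THC, 0.622% for LPS after vehicle and 1.52% for LPS averaged over both pretreatments. None of the 10 was called lower, as 0.0116% of all genes tested were after THC. DESeq2 called 1 member and 2.8% of all genes after THC, 1 and 1.26% after vehicle, and 3 and 4.17% on average. An unadjusted p under 0.05 was reached by 4 members and 19.4% of all genes after THC, by 3 and 7.45% after vehicle, and by 4 and 18.6% on average. Cst7, at an average log2 fold change of 1.99, and Gpr84, at 1.05, did not pass. After THC, 4 members lay higher with LPS without overlap of the groups, as 9.83% of all genes tested did, and after vehicle 2 did, as 6.96% of all genes tested did. In both comparisons 2 members lay higher without overlap, against 1.79% of all genes tested, and 0 lay lower, against 1.71%. Cst7 is counted in both comparisons and Clec7a after THC, and both genes passed the filter only through LPS libraries. Apoe, Trem2 and Axl had average log2 fold changes between -0.15 and -0.10. The median log2 fold change of the 10 members was 0.59 after THC and 0.09 after vehicle, beside -0.01 and -0.04 over all genes tested. The 2 middle values after THC, which set that median, were 0.38 for Igf1 and 0.80 for Lpl. Without THC_LPS replicate 3, the library with the GC trend, they were -0.04 and 0.43. The median after THC therefore does not show a rise shared by the members.

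Lyz2 encodes lysozyme, an antibacterial enzyme of macrophages, and lies on chromosome 10 from 117277334 to 117282274 (mm10, minus strand, ENSMUSG00000069516). It had 11.1, 8.47 and 9.82 CPM in THC_LPS, against 3.72, 4.35 and 4.46 CPM in THC_Ctrl. After vehicle it had 12.4, 13.04 and 15.5 CPM in Veh_LPS, against 5.77, 7.04 and 5.23 CPM in Veh_Ctrl. Every LPS library lay above every saline library of either pretreatment. The log2 fold change was 1.23 ± 0.18 after THC (SE; edgeR adjusted p = 0.0161) and 1.19 ± 0.17 after vehicle (edgeR adjusted p = 0.00273), and averaged over both it was 1.21 ± 0.12 (edgeR adjusted p = 0.000122), a 2.31-fold higher level. The average passed in 21 of 21 alternatives. In brain tissue as a whole, more cells of a type and more RNA per cell cannot be told apart. The authors' deposited table gives Lyz2 an adjusted p of 0.000224, the only one of the 10 members below 0.05 there, where 145 of 16921 genes are. Its header does not name the comparison, but its order matched DESeq2 on the 6 THC libraries (Spearman 1), those of LPS after THC. The call after THC was lost without THC_Ctrl replicate 1, 2 or 3, at edgeR adjusted p of 0.0794, 0.0991 and 0.0572, and in a fit of the THC libraries alone, at 0.188. The log2 fold changes in these fits were 1.15, 1.25, 1.28 and 1.23. The near-identical gene Lyz1 shared 15.4% of Lyz2's 50-base windows and had 0 to 3 reads per library.

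Cst7 encodes cystatin F, an inhibitor of lysosomal cysteine proteases (chromosome 2, 150570415 to 150578944, plus strand). It had 8, 7 and 16 reads in THC_LPS, against 4, 5 and 3 reads in THC_Ctrl. After vehicle there were 6, 19 and 24 reads in Veh_LPS, against 0, 2 and 5 reads in Veh_Ctrl, where the 0 allows up to 3 reads, or 0.118 CPM, by counting error alone. On the CPM scale both LPS groups lay above their saline groups without overlap. Its log2 fold change was 1.67 ± 0.72 after THC and 2.32 ± 0.76 after vehicle, with edgeR adjusted p of 0.226 and 0.366, and 1.99 ± 0.52 on average (edgeR adjusted p = 0.0728). Among 20 alternatives the average passed in 6, DESeq2 among them at an adjusted p of 0.0154.

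Gpr84, a receptor for medium-chain fatty acids that activated myeloid cells raise, lies on chromosome 15 from 103308236 to 103310438 (minus strand). It had 2.26, 1.09 and 0.538 CPM in THC_LPS, against 0.485, 0.821 and 0.423 CPM in THC_Ctrl. In vehicle-pretreated mice it had 1.35, 2.69 and 2.71 CPM in Veh_LPS, against 1.06, 1.37 and 1.08 CPM in Veh_Ctrl. One LPS library overlapped with the saline libraries in each comparison, THC_LPS replicate 3 and Veh_LPS replicate 1. This gave a log2 fold change of 1.14 ± 0.48 after THC and 0.95 ± 0.42 after vehicle, with edgeR adjusted p of 0.222 and 0.641, and 1.05 ± 0.32 on average (edgeR adjusted p = 0.121). Without THC_LPS replicate 3 the average was 1.27 ± 0.29 and passed at an edgeR adjusted p of 0.0239, as it did in 4 of 21 alternatives in all.

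Clec7a encodes dectin-1, a receptor for fungal beta-glucans (chromosome 6, 129461591 to 129472777, minus strand). It had 8, 11 and 12 reads in THC_LPS, against 3, 0 and 9 reads in THC_Ctrl. With vehicle first it had 0, 5 and 9 reads in Veh_LPS, against 3, 6 and 4 reads in Veh_Ctrl. A count of 0 allows up to 0.123 CPM in THC_Ctrl replicate 2 and 0.119 CPM in Veh_LPS replicate 1. The reads overlapped in both comparisons. On the CPM scale, which allows for depth, THC_LPS lay above THC_Ctrl, at 0.475 against 0.346 CPM for the closest libraries, and Veh_LPS and Veh_Ctrl overlapped. Neither comparison passed the test. The log2 fold change was 1.67 ± 0.82 after THC and -0.35 ± 0.90 after vehicle, with edgeR adjusted p of 0.273 and 0.943.

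**Figure D2:**
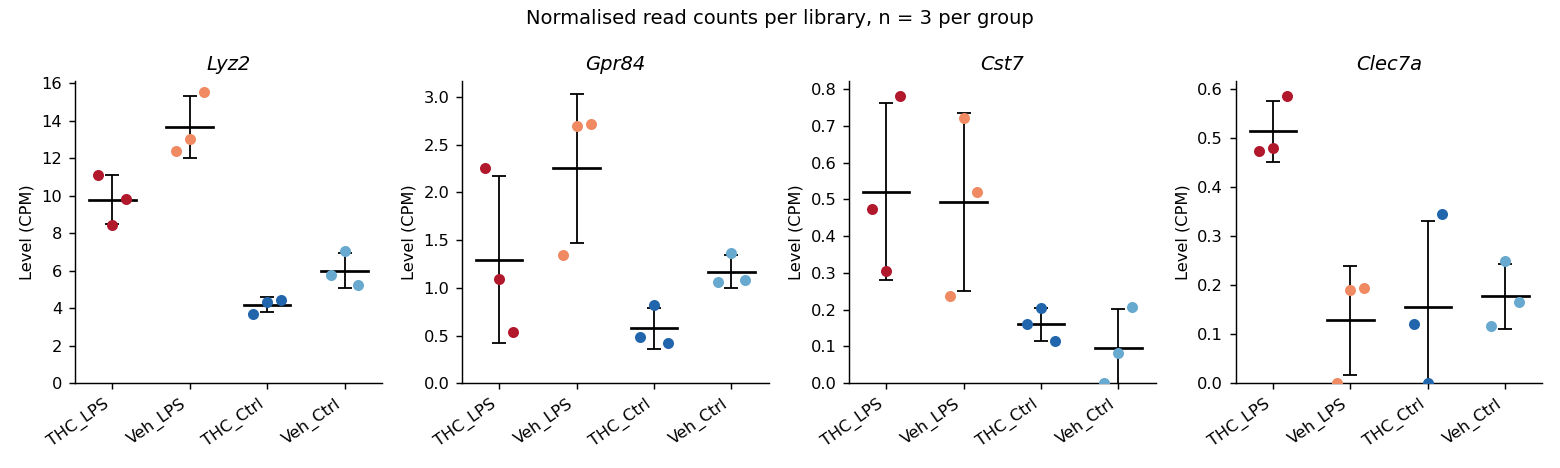
Level of Lyz2, Gpr84, Cst7 and Clec7a in each library (y axis, CPM; points, with the mean as a line and bars of 1 SD, n = 3 per group), in the order THC_LPS, Veh_LPS, THC_Ctrl and Veh_Ctrl. All 6 LPS libraries of Lyz2, at 8.47 to 15.5 CPM, lie above all 6 saline libraries, at 3.72 to 7.04 CPM, while Clec7a is highest in THC_LPS alone.

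Trem2, the lipid-sensing receptor that the full disease-associated program requires in mice, lies on chromosome 17 from 48346401 to 48354147 (plus strand). It had 9.62, 7.16 and 6.99 CPM in THC_LPS, against 10.4, 7.59 and 9.27 CPM in THC_Ctrl. Following vehicle it had 11.97, 7.96 and 8.38 CPM in Veh_LPS, against 9.93, 9.32 and 8.89 CPM in Veh_Ctrl. The groups overlapped in both comparisons, and the average log2 fold change was -0.10 ± 0.14 (edgeR adjusted p = 0.731).

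Axl, a receptor tyrosine kinase that binds Gas6 and takes part in the clearance of dying cells, lies on chromosome 7 from 25757273 to 25788705 (minus strand). It had 62.5, 61.1 and 47.3 CPM in THC_LPS, against 68.0, 66.3 and 57.8 CPM in THC_Ctrl. After vehicle it had 71.1, 57.5 and 57.5 CPM in Veh_LPS, against 67.2, 67.2 and 68.6 CPM in Veh_Ctrl. These groups also overlapped, with an average log2 fold change of -0.15 ± 0.09 (edgeR adjusted p = 0.404).

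Apoe (chromosome 7, 19696109 to 19699166, minus strand) had 1433, 1275 and 924 CPM in THC_LPS, against 1474, 1497 and 1406 CPM in THC_Ctrl. In vehicle-pretreated mice it had 1704, 1331 and 1218 CPM in Veh_LPS, against 1325, 1549 and 1380 CPM in Veh_Ctrl. Its lowest library was THC_LPS replicate 3, the one with the GC trend, and 59.5% of the Apoe transcript is G or C. Its log2 fold change was -0.27 ± 0.16 after THC and -0.00 ± 0.16 after vehicle, with edgeR adjusted p of 0.359 and 0.999. With the GC trends of the libraries removed, the value for Apoe after THC was 0.02.

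Lpl encodes lipoprotein lipase, which frees fatty acids from lipoproteins (chromosome 8, 68880491 to 68907448, plus strand). It had 5.52, 6.77 and 11.97 CPM in THC_LPS, against 5.42, 3.74 and 4.85 CPM in THC_Ctrl. With vehicle first it had 3.97, 6.41 and 6.82 CPM in Veh_LPS, against 6.40, 3.73 and 5.23 CPM in Veh_Ctrl. The THC_LPS libraries lay above THC_Ctrl without overlap, at 5.52 against 5.42 CPM for the closest libraries, and THC_LPS replicate 3 was highest. This gave a log2 fold change of 0.80 ± 0.29 after THC and 0.17 ± 0.29 after vehicle, with edgeR adjusted p of 0.182 and 0.911. Without THC_LPS replicate 3, the value for Lpl after THC was 0.43 ± 0.27, and with GC trends removed it was 0.55 ± 0.23.

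Spp1 encodes osteopontin, a secreted ligand of integrins and CD44 (chromosome 5, 104435118 to 104441050, plus strand). It had 29.6, 23.8 and 15.7 CPM in THC_LPS, against 29.2, 31.6 and 21.0 CPM in THC_Ctrl. Following vehicle it had 33.2, 31.0 and 21.2 CPM in Veh_LPS, against 13.6, 15.6 and 28.4 CPM in Veh_Ctrl. The groups overlapped in both comparisons. The log2 fold change was -0.25 ± 0.27 after THC and 0.56 ± 0.27 after vehicle, with edgeR adjusted p of 0.63 and 0.682. In the same order of libraries, the summed caudal markers were 81.5, 41.7 and 11.3 CPM in THC_LPS, 67.2, 82.96 and 20 CPM in THC_Ctrl, 85.0, 78.6 and 80.7 CPM in Veh_LPS, and 12.3, 11.2 and 53.8 CPM in Veh_Ctrl. The lowest libraries of both were THC_LPS replicate 3 and Veh_Ctrl replicates 1 and 2, and the part of caudal tissue in the Spp1 values was not tested. Of the 50-base windows of Spp1, 11.6% are shared with the transcript of another gene that has no name in the annotation.

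Igf1 encodes insulin-like growth factor 1 (chromosome 10, 87858265 to 87937042, plus strand). It had 8.07, 10.2 and 19.3 CPM in THC_LPS, against 11.3, 8.87 and 8.81 CPM in THC_Ctrl. After vehicle it had 5.99, 7.73 and 7.43 CPM in Veh_LPS, against 8.28, 7.95 and 9.51 CPM in Veh_Ctrl. Veh_LPS lay below Veh_Ctrl without overlap, as 9.07% of all genes tested did, and the highest library was again THC_LPS replicate 3. Its log2 fold change was 0.38 ± 0.25 after THC and -0.28 ± 0.25 after vehicle, with edgeR adjusted p of 0.405 and 0.833. With GC trends removed, the value for Igf1 after THC was -0.03; 38.0% of its transcript is G or C.

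**Figure D3:**
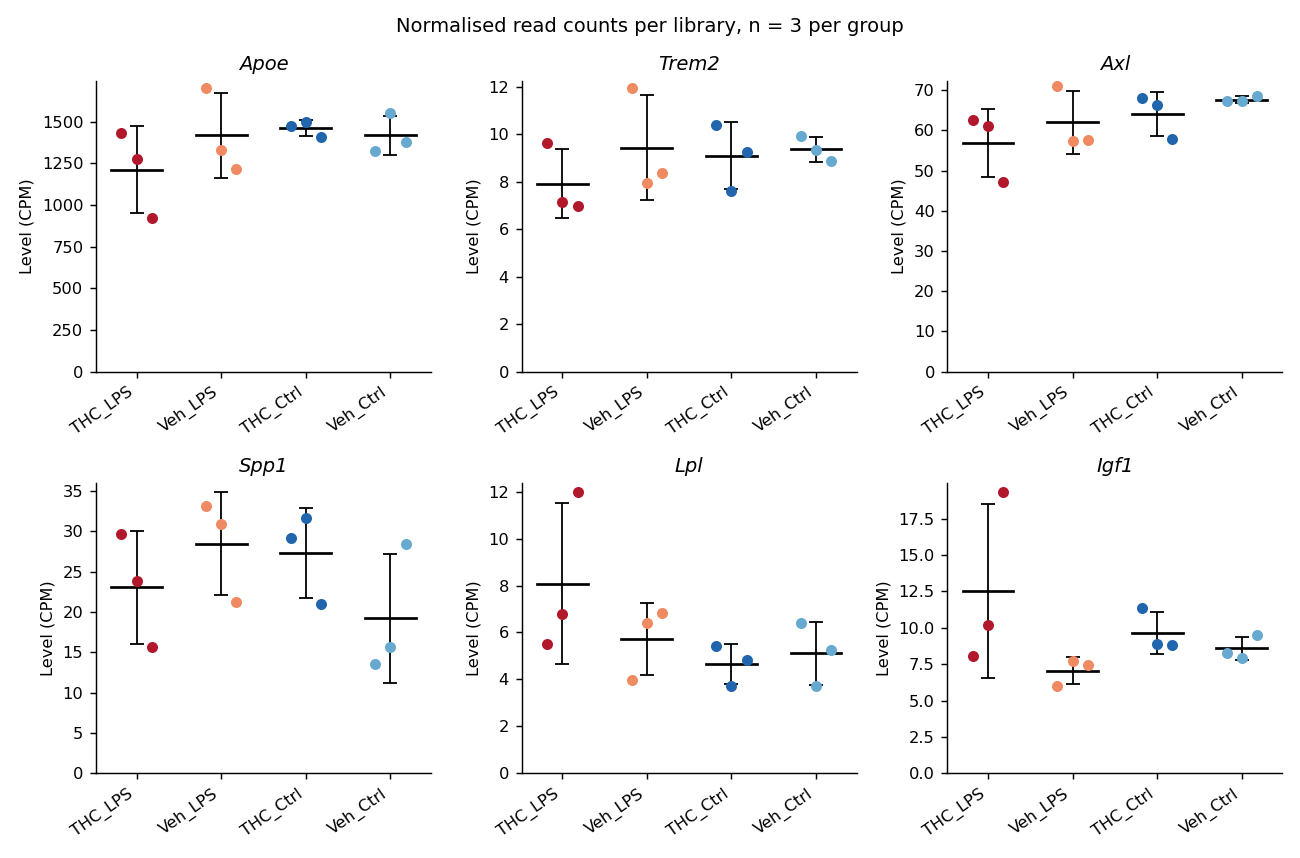
Level of Apoe, Trem2, Axl, Spp1, Lpl and Igf1 in each library (y axis, CPM; points, with the mean as a line and bars of 1 SD, n = 3 per group), in the order THC_LPS, Veh_LPS, THC_Ctrl and Veh_Ctrl. LPS and saline libraries overlap for Apoe, Trem2, Axl and Spp1, and THC_LPS replicate 3 is the highest library of Lpl at 11.97 CPM and of Igf1 at 19.3 CPM.

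**Figure D4:**
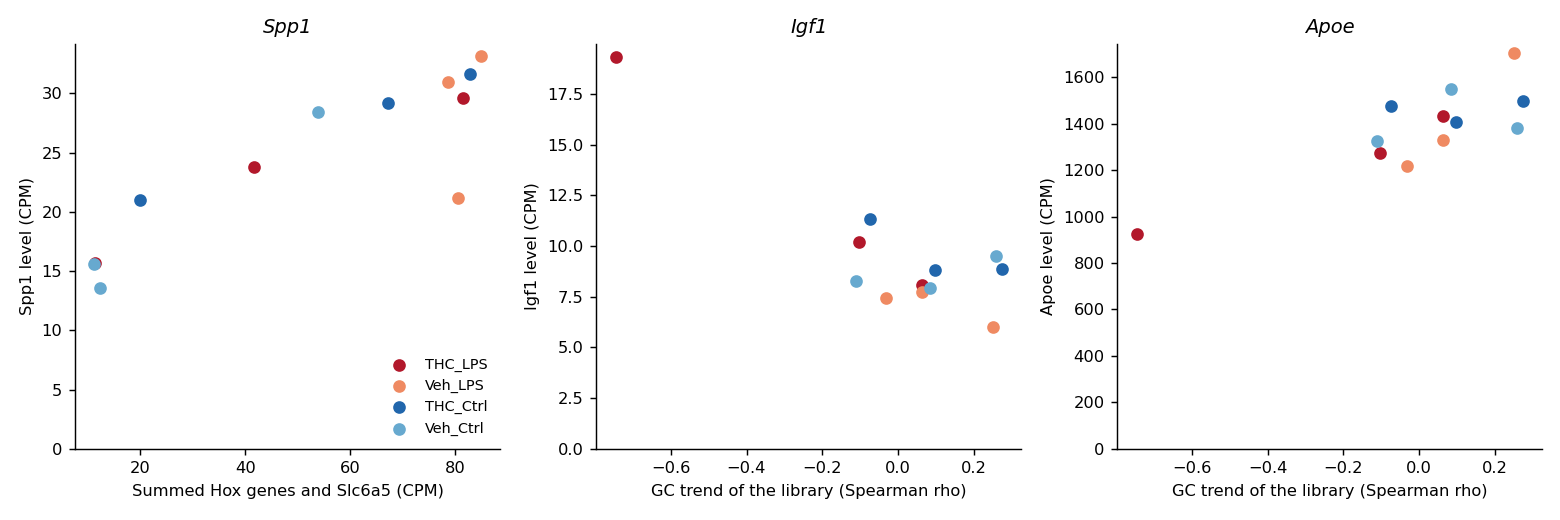
Each of the 12 libraries as a point, coloured by group. Spp1 (y axis, CPM) is drawn against the summed Hox genes and Slc6a5 (x axis, CPM), and Igf1 and Apoe (y axes, CPM) against the Spearman correlation of each library's gene levels with GC content (x axes). THC_LPS replicate 3, at -0.746, holds the highest Igf1 level, 19.3 CPM, and the lowest Apoe level, 924 CPM.

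The second question was whether THC in adolescence left a difference in adult brain. No member passed the test. Lyz2 was lower after THC with LPS and without it, and Gpr84 had negative values in both, while Igf1 and Clec7a had positive values with LPS. By edgeR 0 of the 10 members and 0% of the 17208 genes tested were called for THC with LPS, and 0 of 10 and 0% for THC without LPS. At an unadjusted p under 0.05, 3 members and 10.3% of all genes tested stood out with LPS, and 2 members and 3.62% without LPS, and DESeq2 called 2 genes (0.0116%) with LPS and 15 (0.0872%) without it, none of them a member. These comparisons use the same libraries as the LPS comparisons.

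Lyz2 averaged 9.80 ± 1.32 CPM in THC_LPS and 13.7 ± 1.66 CPM in Veh_LPS (SD, n = 3 each). Without LPS it averaged 4.18 ± 0.40 CPM in THC_Ctrl and 6.01 ± 0.93 CPM in Veh_Ctrl. In both pairs every THC library lay below every vehicle library, as was the case for 6.12% of all genes tested with LPS, 6.85% without it and 0.424% in both. In both pairs 0 members lay higher, against 0.459% of all genes tested. For Lyz2 the log2 fold change was -0.49 ± 0.17 with LPS (edgeR adjusted p = 0.478) and -0.52 ± 0.18 without LPS (edgeR adjusted p = 1). The average of both, a comparison added after seeing the data, was -0.50 ± 0.12 (edgeR adjusted p = 0.619), and it stayed between -0.57 and -0.44 under 21 alternatives without passing in any. For that average an unadjusted p under 0.05 was reached by 3 members and 6.1% of all genes tested, edgeR called 0 genes, and DESeq2 called 14 (0.0814%), none of them a member. Dropping THC_LPS replicate 3 together with Veh_LPS replicate 2 gave an average for Lyz2 of -0.51 ± 0.14.

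Gpr84 averaged 1.30 ± 0.88 CPM in THC_LPS and 2.25 ± 0.78 CPM in Veh_LPS, and 0.577 ± 0.214 CPM in THC_Ctrl and 1.17 ± 0.17 CPM in Veh_Ctrl (SD, n = 3 each). THC_Ctrl lay below Veh_Ctrl without overlap, and with LPS the groups overlapped. This gave a log2 fold change of -0.83 ± 0.43 with LPS and -1.02 ± 0.48 without it, with edgeR adjusted p of 0.486 and 1. Leaving out THC_LPS replicate 3, the lowest of its group, gave -0.45 ± 0.40 for Gpr84 with LPS.

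Igf1 averaged 12.5 ± 6.0 CPM in THC_LPS and 7.05 ± 0.93 CPM in Veh_LPS (SD, n = 3 each), groups that did not overlap, as 5.61% of all genes tested were higher without overlap. The log2 fold change was 0.83 ± 0.25 with LPS (edgeR adjusted p = 0.478) and 0.17 ± 0.25 without it (edgeR adjusted p = 1). Without THC_LPS replicate 3, Igf1 with LPS had 0.39 ± 0.18, and with GC trends removed 0.45 ± 0.16. Clec7a, with 8, 11 and 12 reads in THC_LPS against 0, 5 and 9 in Veh_LPS, had a log2 fold change of 1.87 ± 0.80 with LPS (edgeR adjusted p = 0.478) and -0.15 ± 0.91 without it. This gene passed the filter only through THC_LPS. Among the others, Cst7, Lpl, Spp1, Apoe, Trem2 and Axl, values ran from -0.30 to 0.49 with LPS and from -0.13 to 0.72 without it, and every pair of groups overlapped.

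The third question was whether the response to LPS differed by pretreatment. The interaction, THC_LPS minus THC_Ctrl less Veh_LPS minus Veh_Ctrl, was called for 0 of the 10 members and for 0% of the 17208 genes tested by edgeR. None of the 10 and 6.78% of all genes tested had an unadjusted p under 0.05, and DESeq2 called 1 gene (0.00581%), not a member. For Lyz2 the difference between the LPS responses was 0.04 ± 0.24 on the log2 scale. The largest was that of Clec7a, 2.02 ± 1.23 (edgeR adjusted p = 0.715), and that of Spp1 was -0.81 ± 0.39 (edgeR adjusted p = 0.71). Clec7a had passed the filter only through THC_LPS. Without THC_LPS replicate 3 the value for Spp1 was -0.59 ± 0.43. The caudal markers had an interaction median of -4.31, with positive values for 0 of 13 genes and none called. The part of caudal tissue in the Spp1 value was not tested.

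**Figure D5:**
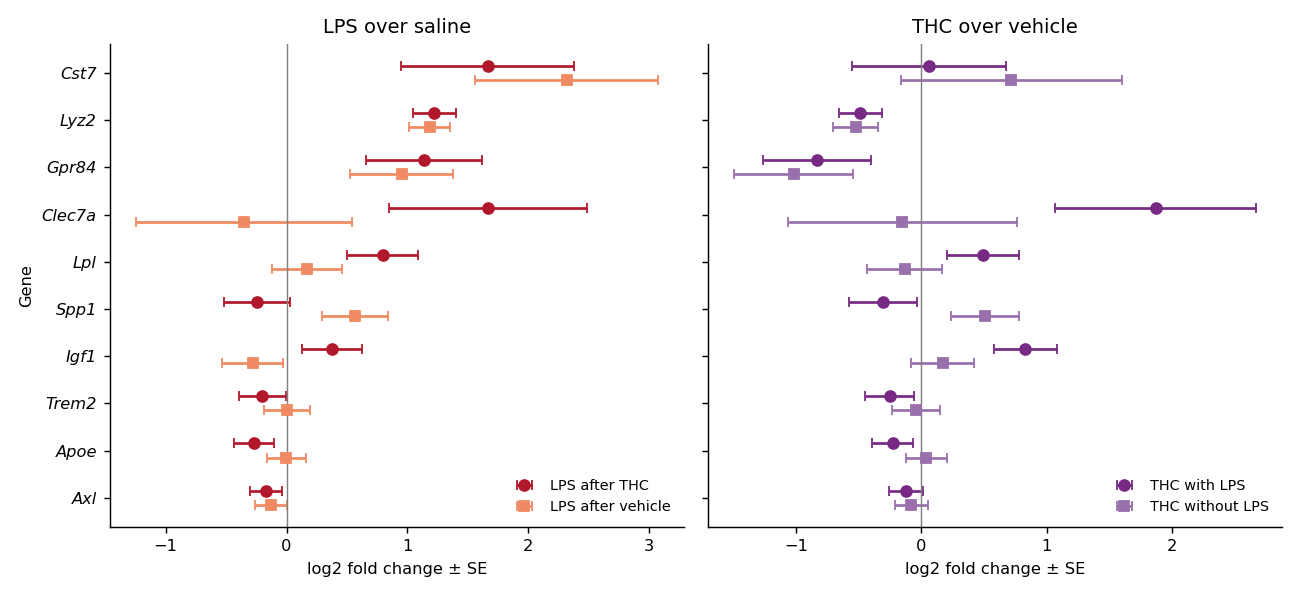
Log2 fold change of each member with its SE (x axes) for LPS over saline (left: circles after THC, squares after vehicle) and for THC over vehicle (right: circles with LPS, squares without). Lyz2 lies at 1.23 and 1.19 for LPS and at -0.49 and -0.52 for THC, with short bars, and the bars of Cst7 and Clec7a, the genes with the fewest reads, are the longest.

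Other genes of the same programs and pathways were counted from lists. For LPS averaged over both pretreatments, where 1.34% of all genes tested were called higher and 0.174% lower, 4 of 27 other disease-associated microglia genes tested rose and 1 fell. Of the 261 genes called, 231 were higher. That balance depended on the processing, with 503 of 1020 higher once GC trends were removed and 1765 of 4130 by voom with sample weights. By DESeq2, 606 of the 718 genes called were higher. In this list DESeq2 and GC removal each called 7 genes higher and 1 lower. Cybb, the catalytic subunit of the phagocyte NADPH oxidase, rose by 1.60 ± 0.22 on the log2 scale (edgeR adjusted p = 0.000879). B2m, the light chain of class I antigen presentation, rose by 0.64 ± 0.10, Ctss, a lysosomal protease, by 0.54 ± 0.10, and Capg, an actin-capping protein, by 0.74 ± 0.16, and the lipid-binding protein gene Fabp5 fell by 0.47 ± 0.11. The list's median was 0.17, against -0.02 over all genes tested. Of 20 homeostatic microglia genes 2 were called higher, Olfml3 by 0.69 ± 0.11 and Fcrls by 0.60 ± 0.10, and none lower, with a list median of 0.16. DESeq2 called 7 of the 20 higher and GC removal 6. P2ry12 and Tmem119, not called by edgeR, went opposite ways after vehicle. P2ry12 had 12.3 to 20.7 CPM in Veh_LPS against 20.9 to 23.4 in Veh_Ctrl, lower without overlap, as 9.07% of all genes tested were. Tmem119 had 25.05 to 30.25 CPM in Veh_LPS against 17.1 to 23.3 in Veh_Ctrl, higher without overlap, as 6.96% were. After THC the groups overlapped for both genes.

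Around the receptors, again for LPS on average, 1 of 14 signalling genes of Trem2 and Clec7a rose, the adaptor Lcp2 by 1.18 ± 0.20. In that list DESeq2 and GC removal each called 4 higher. By edgeR 0 of 8 genes in the list of Axl ligands and related receptors were called, and 1 by DESeq2. In that list the smallest p belonged to the Axl relative Mertk, at 0.37 ± 0.12 (edgeR adjusted p = 0.132), and to Lgals3, at 0.60 ± 0.23. Of 21 genes of lipid handling around Apoe and Lpl, 0 rose and 1 fell, Fabp5, which is also in the first list, and DESeq2 and GC removal each called 1 higher and 1 lower. None of 9 Spp1 receptors was called, with Itga4 at 0.35 ± 0.13 and Itgb5 at 0.16 ± 0.13. In the Igf1 list 1 of 13 rose, the binding protein gene Igfbp7 by 1.19 ± 0.12. Of 7 cysteine proteases, the class that cystatin F inhibits, 3 rose: Ctsc by 1.22 ± 0.13, Ctss as above and Ctsh by 0.45 ± 0.11. For THC with LPS, THC without LPS and the interaction, edgeR and DESeq2 each called 0 genes in every one of the 20 lists, markers included.

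Marker lists of myeloid and endothelial cells held genes called with LPS, while the astrocyte and neuron lists held none by edgeR. The shared myeloid list of 15 genes summed to 370 to 502 CPM in THC_LPS against 329 to 389 in THC_Ctrl, and to 490 to 538 in Veh_LPS against 322 to 352 in Veh_Ctrl, and 8 of 15 were called higher for LPS on average (12 by DESeq2 and with GC removal), Ly86 by 1.46 ± 0.18 and Fcer1g by 1.00 ± 0.12. The blood monocyte and neutrophil list of 17 genes, of which 12 were tested, summed to 122.5 to 142.7 CPM in THC_LPS against 73.0 to 96.6 in THC_Ctrl, and to 106.5 to 135.7 in Veh_LPS against 65.7 to 94.9 in Veh_Ctrl. Fn1, which vascular cells also express, made up 71.3 to 77.1% of that sum. Without Fn1 the sums were 30.9 to 36.2 CPM in THC_LPS against 18.5 to 26.1 in THC_Ctrl, and 21.3 to 35.3 in Veh_LPS against 19.6 to 25.8 in Veh_Ctrl. In that list 4 of 12 rose, Plac8 by 3.65 ± 0.44, Ly6c2 by 3.38 ± 0.50, Chil3 by 2.66 ± 0.52 and Fn1 by 0.69 ± 0.11. Plac8, Ly6c2 and Chil3 had at most 0.115, 0.202 and 0.275 CPM in any saline library. These 3 genes passed the filter only through LPS libraries. DESeq2 called 6 of the 12 higher. Of the 12, 11 had positive values, as 45.8% of all genes tested did, and the filter had favoured genes high with LPS. The neutrophil gene S100a8 had 0.306 to 1.19 CPM in THC_LPS against 0.243 to 0.423 in THC_Ctrl, and 0.341 to 1.52 in Veh_LPS against 0.124 to 0.415 in Veh_Ctrl. S100a9 had 0.611 to 2.55 CPM in THC_LPS against 0.123 to 0.566 in THC_Ctrl, and 0.991 to 2.30 in Veh_LPS against 0.157 to 0.911 in Veh_Ctrl. Ly6g, with 11 reads over all 12 libraries, had 0 in Veh_LPS and reached 0.175 CPM in THC_LPS. Of 12 border-associated macrophage genes 1 rose, Siglec1 by 2.58 ± 0.24, where DESeq2 called 5, and of 12 endothelial genes 2 rose, Ly6c1 by 1.01 ± 0.14 and Pecam1 by 0.56 ± 0.11. Of 12 astrocyte genes edgeR called 0 (list median -0.02) and of 12 neuron genes 0 (median -0.00). With GC trends removed, 1 gene was called higher and 2 lower in each of these lists. DESeq2 called 1 astrocyte gene higher and 1 neuron gene lower. In the oligodendrocyte list 1 of 10 fell, Opalin by 0.64 ± 0.14, and DESeq2 and GC removal each called 1 higher and 1 lower. For LPS on average, edgeR and DESeq2 called none of 10 choroid plexus, 11 meningeal fibroblast, 5 motor neuron, 5 pituitary and 13 caudal genes tested. The medians of the pituitary and caudal lists were 2.55 and 1.72. For LPS after vehicle, edgeR and DESeq2 each called 3 of the 13 caudal genes higher, and GC removal 1. The caudal median was 3.97 there and -0.35 for LPS after THC, where none was called. Lyz2 is expressed in several of these cell types, and their part in its rise was not tested.

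Likeness was measured over the 12 libraries, which share treatments and tissue, as the correlation of log2 CPM with 14727 genes of at least 1 CPM. Lyz2 was most like Ifi47, an interferon-induced GTPase gene (Pearson 0.973, Spearman 0.972), then Oas1a, an antiviral enzyme gene (0.951 and 0.923), and Tnfrsf1b, a receptor of tumour necrosis factor (0.948 and 0.951). Gpr84 was most like Ptpn6, a phosphatase gene of blood cells (0.952 and 0.916), Fermt3 (0.905 and 0.888) and Pkn3 (0.901 and 0.888). Spp1 was most like Mab21l2 (0.937 and 0.902), Slc6a5, the glycine transporter of the caudal list (0.914 and 0.811), and Atp1b2 (0.905 and 0.797). Lpl was most like Bclaf1 (0.981 and 0.958), A530054K11Rik (0.979 and 0.951) and Nrd1 (0.973 and 0.958), whose transcripts hold 39.6%, 39.5% and 46.6% G or C. Apoe was most like Rnd2 (0.974 and 0.923), Ext2 (0.969 and 0.895) and the kinase gene Akt1 (0.968 and 0.937), at 57.5%, 53.1% and 59.7% G or C. Igf1 was most like POU2F1, as the files name it (0.968 and 0.825), Raph1 (0.954 and 0.79) and Ano5 (0.948 and 0.916). Axl was most like Sall2 (0.945 and 0.895), B930041F14Rik (0.937 and 0.895) and Tbc1d25 (0.936 and 0.776), and Trem2 like Lrrc61 (0.885 and 0.93) and the ribosomal protein genes Rpl6 (0.882 and 0.895) and Rpl14-ps1 (0.86 and 0.909).

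Among the members themselves, the most alike were Apoe and Axl (Pearson 0.877, Spearman 0.713) and Lyz2 and Gpr84 (0.776 and 0.818). The most opposed were Apoe and Lpl (-0.946 and -0.916). Leaving out THC_LPS replicate 3 gave Pearson values of 0.69 for Apoe and Axl, 0.903 for Lyz2 and Gpr84 and -0.873 for Apoe and Lpl. Lpl and Igf1 had 0.711 over all 12 libraries and 0.245 over the 11 others without it. Lyz2 and Apoe had -0.25, and Lyz2 and Trem2 -0.104 over all 12 libraries.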

How the data were processed

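RNA-seq of brain tissue was analysed in 12 libraries, grouped by the treatment label. Named without roles in the submitters' processing notes are mm10, DESeq2, HTSeq and STAR 2.5. No source used here gives the strandedness, the library kit or the annotation version. The authors deposited raw read counts for each gene (per the file headers), which were joined by gene ID, a missing gene being 0. The deposited FPKM equalled reads per length and file total, as checked on the values, and only describes levels. In 1 table the authors also deposited an adjusted p-value; its order matched DESeq2 on the 6 THC libraries (Spearman 1), and it is quoted only as theirs. A further 12 normalized columns were not used.

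edgeR 4.0.16 in R 4.3.3 fitted all 12 libraries with 1 mean for each group, TMM, filterByExpr, robust quasi-likelihood tests and Benjamini-Hochberg adjustment over 17208 genes, with calls at an adjusted p under 0.05. The SE is the absolute log2 fold change over the square root of F and is approximate. The alternatives tried were limma 3.58.1 (voom, sample weights), DESeq2 1.42.0, other scaling and filters, only the groups compared, removal of GC trends by loess (span 0.5; 99.3% of tested genes had a GC value), the replicate number as a block, and each library left out. Tested on simulated data for 16943 genes and the contrast of LPS after vehicle, edgeR found 20.9% of the genes set to 1.5-fold changes, 71.6% of those set to 2-fold and 89.4% of those set to 4-fold. It made 127 calls, 4.72% of them false. The simulated libraries had no GC trend and no differences in tissue content, unlike the real ones, so these shares may not hold for the real data. Every pair of replicate libraries differed beyond sampling noise (smallest chi-square per degree of freedom 10.5). Intervals and limits for a count of 0 cover counting error only. All 10 members are named in every comparison. From each list the text names up to 4 called genes by smallest p, or the 2 with the smallest p where none was called, and per member of at least 1 CPM on average the 3 genes most like it. The members and the 20 lists (266 of 267 entries found) were chosen with earlier results of these data known.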

Additional observations from a re-analysis of the deposited data

How the results depend on the processing

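Lyz2 kept its direction and its call for LPS after vehicle in 22 of 22 alternatives, for LPS averaged over pretreatments in 21 of 21, and for LPS after THC in 18 of 22. In no alternative was a member called for THC or for the interaction. Of the log2 fold changes of single members, 76 values under alternatives took the opposite sign to the reported one, 12 passed the threshold where the reported one did not, and 4 no longer passed. At the depth of these libraries Cst7 and Clec7a, with at most 24 and 12 reads, can show only large differences. The same-numbered libraries did not vary together (correlations of their deviations from -0.146 to 0.0902), so the numbers are not taken as pairs. With the replicate block, 86 genes were called for LPS after vehicle, 19 for LPS after THC, 192 for LPS on average, and 7 for THC without LPS, and the members called stayed at 1, 1, 1 and 0; the cause of each change below was not tested.

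The counts of all genes called that moved by more than 1.5 times were as follows. For LPS after THC, against 19 reported, DESeq2 called 481, voom 975, no filter 149, a filter of 1 CPM 12, GC removal 149, the block with GC removal 64 and the compared groups alone 2, with 0 members there; 108 of the 149 under GC removal were higher, against 17 of the 19 reported. For LPS after vehicle, against 107, DESeq2 called 216, voom 1895 and GC removal 163, and voom called 3 members; 891 of the 1895 by voom were higher, against all 107 reported. For LPS on average, against 261, DESeq2 called 718, voom 4130, no filter 451, GC removal 1020 and the block with GC removal 619, with 3 members under DESeq2, voom and GC removal and 2 without a filter. For THC without LPS, against 0, DESeq2 called 15, voom 97, no filter 2, the block 7, the block with GC removal 9, the compared groups alone 9, and the fit without both Veh_LPS replicate 2 and THC_LPS replicate 3 called 4. For THC with LPS, DESeq2 and voom called 2 each. For the interaction, DESeq2 called 1 and the block with GC removal 2. For THC on average, DESeq2 called 14, voom 8, no filter 1, the block with GC removal 3 and the fit without both libraries 2. With each library left out in turn, all genes called ran from 0 (without THC_Ctrl replicate 1) to 160 (without THC_LPS replicate 1) for LPS after THC, with 0 to 1 members, from 33 (without Veh_Ctrl replicate 1) to 197 (without THC_LPS replicate 3) for LPS after vehicle, from 128 (without THC_Ctrl replicate 2) to 702 (without Veh_LPS replicate 1) for LPS on average, with 1 to 2 members, from 0 to 5 for THC without LPS and from 0 to 1 for the interaction.

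Signs turned for several members, also where the reported value was not near 0, such as 0.38 for Igf1 for LPS after THC. With GC trends removed, Apoe took 0.02 for LPS after THC, 0.04 for THC on average, 0.05 for the interaction and 0.06 for THC with LPS, and 0.02, 0.04, 0.06 and 0.07 with the block added. Axl took 0.13 for the interaction and 0.02 for THC with LPS, and 0.14 and 0.03 with the block added. Igf1 took -0.03 for LPS after THC and -0.16 for LPS on average, and -0.05 and -0.17 with the block added. Trem2 for LPS after vehicle took -0.03, -0.05 with the block added, -0.01 with the block alone and -0.15 by voom. Apoe for LPS after vehicle took 0.03 by DESeq2, by median-ratio size factors and in the compared groups alone, and 0.04 with no filter and with a filter of 1 CPM. By voom, Spp1 took 0.01 for LPS after THC, Igf1 -0.08 for LPS on average, Apoe 0.02 and Lpl -0.03 for THC on average, Axl 0.16 and Lyz2 -0.08 for the interaction, and Apoe 0.01, Axl 0.05 and Cst7 -0.48 for THC with LPS. Without both Veh_LPS replicate 2 and THC_LPS replicate 3, Igf1 took -0.04 and Spp1 0.00 for LPS after THC, Apoe 0.07 for LPS after vehicle, Igf1 -0.18 and Trem2 0.02 for LPS on average, Axl 0.03 for the interaction, and Cst7 -0.02 and Spp1 0.00 for THC with LPS.

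With each library left out in turn, the members whose sign turned ranged as follows. For LPS after THC, Igf1 ran from -0.04 to 0.61 and Spp1 from -0.47 to 0.00. For LPS after vehicle, Apoe ran from -0.16 to 0.10, Clec7a from -0.85 to 0.12, Lpl from -0.02 to 0.37 and Trem2 from -0.20 to 0.11, and for LPS on average Igf1 ran from -0.14 to 0.16. For THC on average, Apoe ran from -0.16 to 0.00, Lpl from -0.01 to 0.28 and Spp1 from -0.01 to 0.31. For the interaction, Axl ran from -0.12 to 0.08, Gpr84 from -0.44 to 0.55 and Lyz2 from -0.09 to 0.15. For THC with LPS, Axl ran from -0.19 to 0.01 and Cst7 from -0.36 to 0.39. For THC without LPS, Apoe ran from -0.01 to 0.11, Clec7a from -1.46 to 0.40, Lpl from -0.32 to 0.06 and Trem2 from -0.15 to 0.07.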
